A study of Mus musculus with 550 samples.

Results

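Single-cell transcriptomes of Dnmt3a knockout (3AKO) embryoid bodies (EBs, aggregates in which mouse embryonic stem cells differentiate) at day 9 were set against those at day 3. Only library batch 1 was used, and cells were kept with at least 50000 reads, at least 2000 detected genes and at most 50% of reads from mitochondrial genes. This gave 119 of 126 cells, 58 of 62 at day 3 and 61 of 64 at day 9, out of 550 cells in the whole series. The same time contrast in wild type (WT) batch 1 held 54 cells at day 3 and 60 at day 9. Both genotypes are lines of E14 embryonic stem cells, an established male line, and differentiation followed withdrawal of leukaemia inhibitory factor. EBs of each clone were pooled and dissociated with trypsin, and live single cells were sorted 1 per well for full-length cDNA (Smart-seq2, modified), so that reads carry no molecular identifiers.

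DNMT3A and DNMT3B are the de novo DNA methyltransferases, which add methyl groups to CpG sites as the epiblast leaves naive pluripotency. DNMT1, with UHRF1, copies the methylation pattern at replication, DNMT3L assists the de novo enzymes and the TET enzymes oxidise methylated cytosine. In EBs, cells leave the pluripotent state and take on epiblast, ectoderm and meso-endoderm fates over several days, and the interior of a growing aggregate is known to receive less oxygen than its surface.

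Each combination of genotype and day came from 1 plate and was handled as 1 sample, so plate, culture and day cannot be told apart and no value here has a replicate check. Several clones of a genotype may be mixed in a group, since the labels give no clone for any cell. No test was therefore run. Reads were summed over the cells of a group and scaled to CPM (counts per 1e6 reads), and changes are log2 ratios of CPM + 1, which understate the change of genes with low values. Brackets after a CPM value give its 95% exact Poisson interval, which covers counting error only. As a measure of spread, batch 1 was compared with batch 2, other wells of the same plate, in WT day 3, WT day 9 and 3AKO day 9. The root mean square of these 3 differences is called the batch spread, and its median over 11906 genes was 0.75 (log2). Batch 2 of day 3 was not used for 3AKO, because the levels of the targeted genes went against its label.

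The 3AKO cells gave 12828757 summed reads at day 3 and 13954430 at day 9, with medians per cell of 217608 and 221582. In WT the sums were 11248948 and 22867811. At an equal depth of 50000 reads, 3AKO cells held a median of 5614.5 detected genes at day 3 (range 4709 to 6304) and 4699 at day 9 (range 1954 to 5954). WT cells went from 5588.5 to 4467, so fewer genes per cell were detected at day 9 in both genotypes. The median mitochondrial share was 6.31% at day 3 and 4.20% at day 9 in 3AKO, and it was 9.09% in batch 2 of 3AKO day 9.

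The targeted gene was low on both days. Dnmt3a (chromosome 12, 3806007 to 3914443, GRCm38) was at 25.8 CPM at day 3 (23.1 to 28.7) and 26.1 CPM at day 9 (23.5 to 28.9) in 3AKO, a log2 ratio of 0.02. In WT it was at 455.2 CPM at day 3 and 176.8 CPM at day 9, a log2 ratio of -1.36. Thus the 3AKO level lay 4.09 below WT at day 3 and 2.71 below at day 9 (log2 difference). A read of Dnmt3a was left in 29 of 58 3AKO cells at day 3 and in 18 of 61 at day 9 after thinning each cell to 50000 reads, against 52 of 54 and 49 of 60 WT cells. Its exons overlap those of the antisense gene Dnmt3aos. The counting options listed in the study's methods include no strand setting, and how many of these reads come from Dnmt3aos was not tested. Dnmt3b was at 260.9 CPM and 192.7 CPM in 3AKO, a log2 ratio of -0.44, against 600.1 CPM and 154.9 CPM in WT, a log2 ratio of -1.95. The batch spread of Dnmt3b was 0.50.

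Several other genes of the methylation machinery were lower at day 9 than at day 3 in batch 1 of both genotypes. Uhrf1 was at 281 CPM and 84.3 CPM in 3AKO (log2 ratio -1.72; WT -1.57), Dnmt3l at 431 CPM and 160.3 CPM (-1.42; WT -1.29) and Dnmt1 at 114 CPM and 54.6 CPM (-1.05; WT -0.41). The ratio of Tet1 was -0.75 in 3AKO and -0.79 in WT, while that of Tet2 was -0.28 against 0.16 with a batch spread of 0.87. Over the 15 of 16 members past the detection limit the median log2 ratio was -0.44 in 3AKO and -0.41 in WT. With batch 2 libraries the medians were -0.65 in 3AKO (against day 3 batch 1) and -0.02 in WT. In batch 1, 3 of the 15 members, Uhrf1, Dnmt3l and Dnmt1, were at least 2-fold lower in 3AKO, against 7.89% of all genes. None was 2-fold higher, and 4 were above 0.

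The detection limit was a read in at least 10% of cells on average over the 4 groups, and 11906 genes passed. Of these, 1038 (8.72%) were at least 2-fold higher at day 9 than at day 3 in 3AKO and 939 (7.89%) at least 2-fold lower. In WT the numbers were 1521 (12.8%) and 928 (7.79%). The median log2 ratio over all 11906 genes was 0.09 in 3AKO and 0.17 in WT. It became -0.03 with TMM scaling in both genotypes, a shift of the size of the smaller list medians. Genes that were higher made up 52.5% of the 2-fold genes in 3AKO, and 38.96% with TMM, 43.04% with DESeq2 size factors and 62.9% with a pseudocount of 10 CPM. Both genotypes shared 428 higher genes, which are 41.2% of the 3AKO set and 28.1% of the WT set. They shared 276 lower genes (29.4% and 29.7%). In opposite directions, 42 genes were higher in 3AKO and lower in WT, and 55 the reverse.

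**Figure D1:**
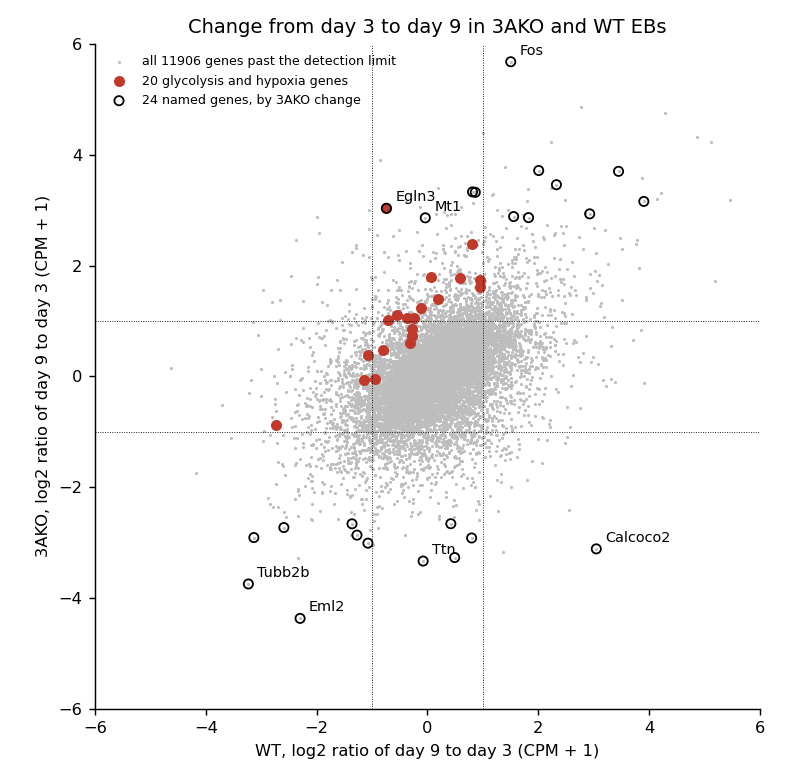
Log2 ratio of day 9 to day 3 (CPM + 1) in WT (x axis) and 3AKO (y axis), each from summed batch 1 cells; dotted lines mark 2-fold. Grey points are the 11906 genes past the detection limit, red points the 20 glycolysis and hypoxia genes, 12 of them above the upper dotted line, and open circles the 24 genes named by their 3AKO change.

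Fos, an immediate-early transcription factor of the AP-1 family, had the largest ratio among the genes that met the naming limits. It was at 5.30 CPM in 3AKO at day 3 (4.12 to 6.72) and 321.9 CPM at day 9 (313 to 331), a log2 ratio of 5.68 and a batch spread of 1.20. At day 3, 5 of 58 cells had a read after thinning and the highest cell was at 122 CPM. At day 9, 36 of 61 had one, and the cells ranged from 0 through a median of 71.3 to 2641 CPM. The ranges overlapped, yet 29 of the 61 day 9 cells lay above the highest day 3 cell. WT went from 11.8 CPM to 35.4 CPM, with reads in 11 of 60 day 9 cells, a log2 ratio of 1.504. With the 27 cells of 3AKO day 9 batch 2 in place of batch 1 the ratio was 5.69, although 1 cell there held 51.8% of the Fos reads. Egr1, another immediate-early factor, had the same ratio in 3AKO and WT (2.93 in each), from 14.4 CPM to 116.8 CPM in 3AKO.

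The other 10 of the 12 highest were Gstm5 (a glutathione transferase; log2 ratio 3.72, WT 2.01), Car4 (a membrane carbonic anhydrase; 3.70, WT 3.45), Dpysl2 (3.46, WT 2.33), Anxa2 (an annexin; 3.33, WT 0.81), Ndufa4l2 (3.32, WT 0.86), S100a6 (3.16, WT 3.91), Egln3 (3.03, WT -0.74), Cfap410 (2.88, WT 1.56), Pim2 (a kinase; 2.87, WT 1.83) and Mt1 (a metallothionein; 2.86, WT -0.04). Gstm5, Anxa2 and Ndufa4l2 share exon bases with another gene. The gene just outside this set was Tspan6, with a ratio of 2.72. With day 9 batch 2 the ratios of Anxa2 and S100a6 were 1.16 and 1.21.

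At the lower end stood Eml2, a microtubule-binding protein, at 34.5 CPM in 3AKO at day 3 (31.3 to 37.8) and 0.72 CPM at day 9 (0.34 to 1.32), a log2 ratio of -4.37 against -2.30 in WT. Tubb2b, a beta-tubulin, went from 174 CPM (167 to 181) to 12.04 CPM (10.3 to 14.004), a log2 ratio of -3.75 against -3.23 in WT. After thinning, a Tubb2b read was found in 57 of 58 day 3 cells and in 13 of 61 day 9 cells, and no day 9 cell reached the day 3 median of 150.6 CPM. The other 10 were Ttn (-3.33, WT -0.08), the non-coding Platr7 (-3.27, WT 0.49), Calcoco2 (-3.11, WT 3.05), Dusp9 (a MAP kinase phosphatase; -3.01, WT -1.07), Adap1 (-2.92, WT 0.80), Palm3 (-2.91, WT -3.13), the mitotic kinesin Kifc1 (-2.87, WT -1.27), Npm3 (-2.73, WT -2.59), Steap2 (-2.66, WT -1.36) and Nfatc2 (-2.66, WT 0.42). Pdzd2, at -2.61, was the first outside. Eml2, Ttn, Palm3 and Npm3 share exon bases with other genes.

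All 24 ratios exceeded the batch spread of the gene, and all 24 kept their direction with day 9 batch 2. The genes were chosen for large ratios, so a ratio above the batch spread was to a large part fixed. That spread also holds no repeat of 3AKO day 3. The comparison with day 9 batch 2 uses the same day 3 cells on which the genes were chosen, so its direction is in part fixed by the choice. In WT, 15 of the 24 were at least 2-fold in the same direction. Calcoco2, a receptor for selective autophagy, was the one named gene with a 2-fold ratio the other way in WT, where 1 cell held 74.7% of its day 9 reads.

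**Figure D2:**
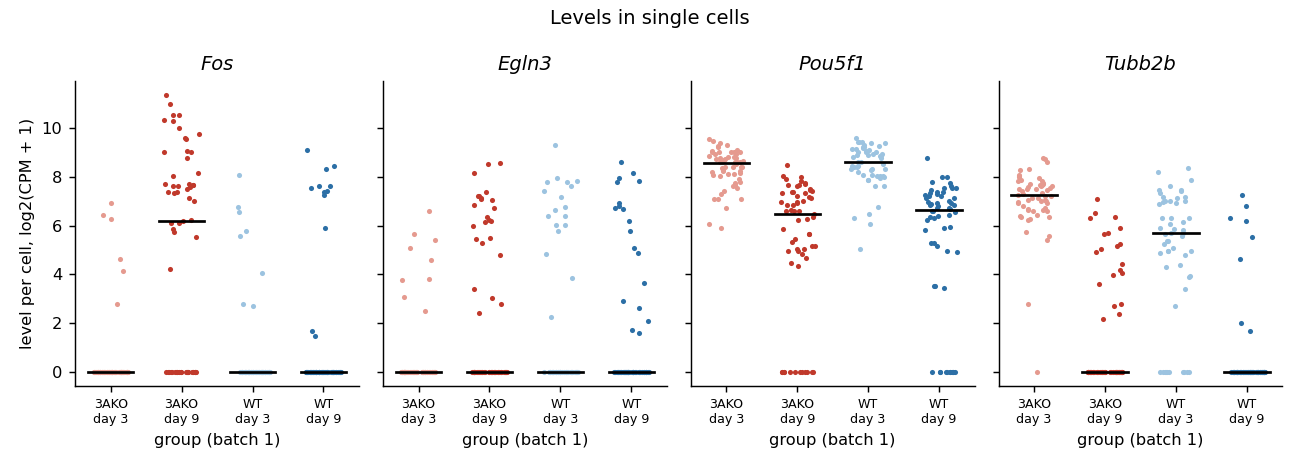
Level of Fos, Egln3, Pou5f1 and Tubb2b in each kept cell, as log2(CPM + 1), by genotype and day in batch 1; each point is 1 cell and the bar is the median over cells. Fos and Egln3 reads were found in more 3AKO cells at day 9 than at day 3, while Pou5f1 and Tubb2b were lower at day 9 in both genotypes.

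Of the core pluripotency genes, 4 of 14 were at least 2-fold lower at day 9 in 3AKO, against 7.89% of all genes. Pou5f1, which encodes the factor OCT4, was at 393.7 CPM at day 3 (383 to 405) and 96.2 CPM at day 9 (91.1 to 101.5) in 3AKO, and at 410.9 CPM and 96.1 CPM in WT. The log2 ratios were -2.02 and -2.08, with a batch spread of 0.71. Every 3AKO cell had a Pou5f1 read at day 3 after thinning, and 48 of 61 had one at day 9. L1td1 (-1.58, WT -1.71), Sox2 (-1.13, WT -0.71) and Fgf4 (-1.01, WT -1.05) were the other core members at least 2-fold lower in 3AKO. The remaining 10 of 14 were within 2-fold, Nanog among them at 0.55 (WT 1.39), and the median was -0.25 (WT -0.51). Of 13 naive pluripotency genes past the limit, Klf4 was 2-fold higher at 1.22 but -0.53 with day 9 batch 2, and Nr5a2 (-1.37) and Dppa5a (-1.17) were 2-fold lower. Their median was 0.04 (WT 0.37), and it was below 0 with TMM at -0.10 and with day 9 batch 2 at -0.74 (WT batch 2 0.54).

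Several genes of the primed epiblast were higher at day 9 in 3AKO. Against backgrounds of 8.72% higher and 7.89% lower, of 11 past the limit 6 were at least 2-fold higher and 2 (Zic2 and Sox4) at least 2-fold lower. The median log2 ratio was 1.14 (WT 0.41). With batch 2 libraries it was 1.43 in 3AKO (against day 3 batch 1) and 1.05 in WT. Pim2 went from 49.3 CPM to 365.4 CPM, Car14 from 9.35 CPM to 58.05 CPM (2.51, WT 1.04), Trh, the precursor of thyrotropin-releasing hormone, from 102 CPM to 547.9 CPM (2.41, WT 0.67) and the claudin Cldn6 from 55.3 CPM to 206 CPM (1.88, WT 0.41). These 4 levels were lower in 3AKO than in WT at day 3. The 3AKO-to-WT log2 difference of the list was -0.74 at day 3 and -0.29 at day 9 by its median in batch 1. The genotypes thus lay closer at day 9 in these libraries, by less than the batch spread of the list of 0.49. Lef1 (1.57) and Otx2 (1.14) were further members above 2-fold, and Pou3f1 stood at 0.996 in 3AKO, just under 2-fold, against -1.79 in WT.

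In the Nodal pathway, which acts through the receptors ACVR1B and ACVR2 and the effectors SMAD2 and SMAD3, the feedback antagonists were lower. Lefty1 was at 1384 CPM and 395.4 CPM in 3AKO (log2 ratio -1.80, WT -0.56) and Lefty2 was at -1.27 (WT -0.49). The ligand Nodal was at -0.56 (WT -0.26), the convertase Pcsk6 at -1.72 (WT 0.93) and the effector Smad3, a low gene, at -0.91 (WT 2.57). The batch spreads of Lefty1 and Lefty2 were 1.30 and 1.54. Of 13 members past the limit, 3 were 2-fold lower (background 7.89%) and none higher, with a median of -0.28 (WT 0.11). With batch 2 libraries the medians were -0.12 in 3AKO (against day 3 batch 1) and -0.30 in WT, so their order turned.

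Most lineage genes were below the detection limit. Only 4 of 19 mesoderm genes and 1 of 17 endoderm genes passed. Brachyury (T), Mixl1, Gata4, Gata6 and Sox17 did not, and no mesoderm gene that failed was seen in more than 5.56% of the cells of any group, while one endoderm gene that failed reached 13.1% of the cells of a group. Fgf8, a growth factor of the primitive streak, was at 6.002 CPM and 52.7 CPM in 3AKO (log2 ratio 2.94, WT 2.84) with a batch spread of 2.87. The mesoderm median was 0.60 (WT 1.57) and turned to -0.56 with day 9 batch 2. The one endoderm gene, Apoe, was in every cell on both days, at a ratio of 0.43 (WT 0.25).

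In the neural ectoderm list 7 of 22 genes passed, 3 of them at least 2-fold higher and none lower, with a median of 0.96 (WT 0.20). Over all genes 8.72% were 2-fold higher in 3AKO and 7.89% lower. Crabp2, a retinoic acid-binding protein, was at 2.88 CPM (2.03 to 3.98) and 52.5 CPM (48.7 to 56.4), a log2 ratio of 3.78 (WT 1.40), with a read in 13 of 61 day 9 cells after thinning and 4 of 58 at day 3. Nnat, an imprinted gene of the nervous system, was at 3.41 (WT 0.19), where 1 cell held 48.03% of its day 9 reads, and Sox11 at 1.26 (WT 0.96). Fabp7, Hes5 and Neurog2 did not pass. For the neuronal cytoskeleton the median of 12 passed genes was -0.45 (WT 0.09). The neurofilament genes Ina (-1.16, WT -1.79) and Nefl (-1.06, WT -2.61) were 2-fold lower with Tubb2b, while Stmn3 (2.08, WT 1.10) and Gap43 (1.73, WT 2.14) were 2-fold higher. Gap43 was at -1.21 with day 9 batch 2.

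Cells were also scored by class, as positive where 3 or more of its markers had 2 or more reads each, after thinning to 50000 reads. Ectoderm-positive cells were 30 of 58 at day 3 (51.7%, exact binomial interval 38.2 to 65.0%) and 34 of 61 at day 9 (55.7%, 42.4 to 68.5%) in 3AKO. The difference was 4.01 percentage points (-14.8 to 22.6), and in WT it was -7.04 points. Without thinning the 3AKO shares were 82.8% and 78.7%. The most frequent of these markers were Stmn2, Sox2 and Tubb3, which the day 3 cells also held. Meso-endoderm-positive cells were 8 of 58 (13.8%) and 15 of 61 (24.6%), a difference of 10.8 points (-4.59 to 25.6) against 10.2 in WT. Here Apoe, found in every cell, and Pecam1 were the most frequent markers, and without thinning the difference was -12.4 points (-30.5 to 6.61). Epiblast-positive cells were 58 of 58 and 57 of 61. Trophoblast-positive cells were 0 of 58 and 0 of 61, with exact binomial upper bounds of 6.16% and 5.87% (a limit of 3 cells allows shares of up to 5.17% and 4.92%). These intervals cover the counting of cells only. With 1 sample per group they are no test of the day, and no direction is read from the shares.

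**Figure D3:**
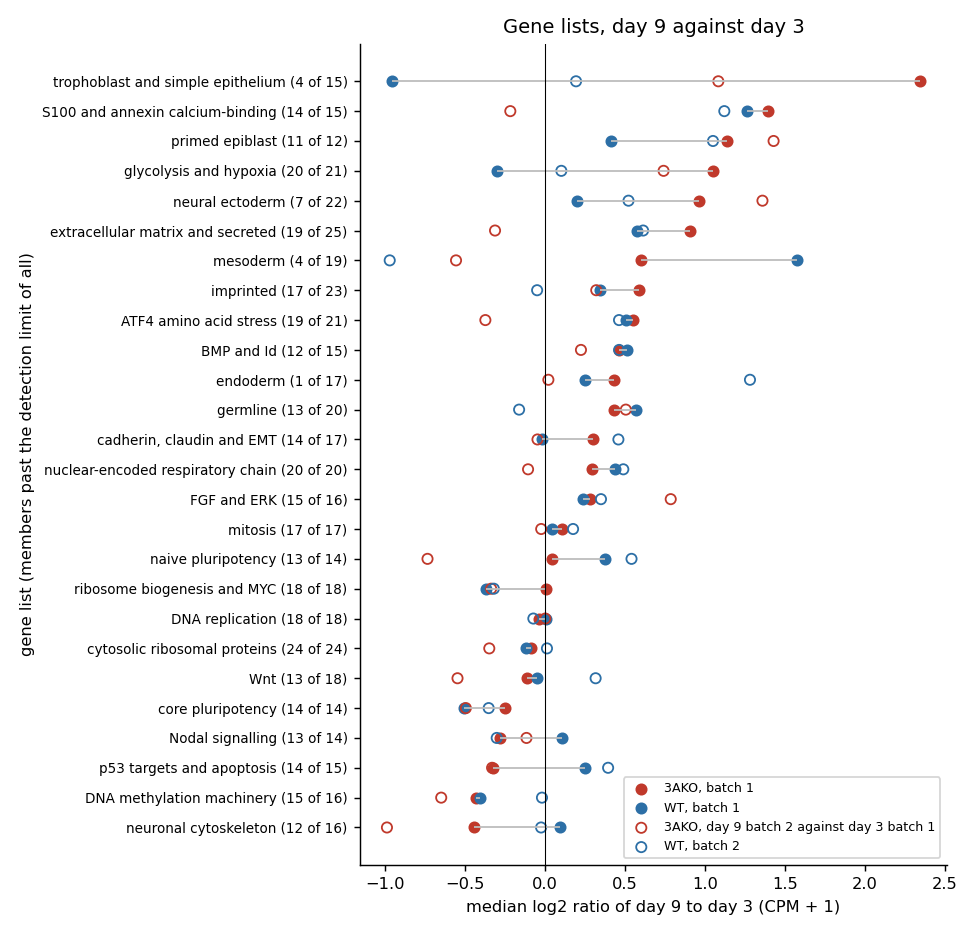
Median log2 ratio of day 9 to day 3 (x axis) for the members past the detection limit of each of 26 gene lists (y axis, with the number of members); filled points are batch 1, open points use batch 2 libraries. The glycolysis and hypoxia list stands at 1.05 in 3AKO and -0.30 in WT, and several lists with high batch 1 medians, such as S100 and annexin genes, are below 0 in 3AKO with day 9 batch 2.

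Genes of glycolysis and of the response to low oxygen were higher at day 9 in 3AKO and not in WT. In this response the factor HIF binds DNA at sites with the core ACGTG and raises glucose transporters, glycolytic enzymes and its own hydroxylase EGLN3. Of 20 members past the limit (Vegfa did not pass), 12 were at least 2-fold higher in 3AKO and none 2-fold lower, whereas in WT none was higher and 3 were lower. The background was 8.72% of all genes higher in 3AKO. The median log2 ratio was 1.05 in 3AKO and -0.30 in WT, with a batch spread of the list of 0.60. The ratio was at least 2-fold higher in 3AKO than in WT for 16 of 20 members, against 7.92% of all genes. The list was drawn up with results of these data known, so these counts are a description.

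The glucose transporter Slc2a1 was at 712.8 CPM at day 3 (698 to 728) and 2487 CPM at day 9 (2461 to 2513) in 3AKO, and at 1409 CPM and 1481 CPM in WT, giving log2 ratios of 1.80 and 0.07. Among the enzymes, in the order of the pathway, Hk2 stood at 1.77 (WT 0.59), Gpi1 at 1.05 (WT -0.37), Pfkp at 1.62 (WT 0.96), Aldoa at 1.05 (WT -0.25), Tpi1 at 1.39 (WT 0.20) and Pgk1 at 1.10 (WT -0.55). Lactate dehydrogenase, Ldha, was at 2494 CPM and 5885 CPM (1.24, WT -0.12). The members below 2-fold included Eno1 (0.59), Pkm (0.47), Gapdh (-0.06) and Pdk1 (-0.07), and Hk1 was at -0.88 (WT -2.73). With day 9 batch 2, Hk2 was at 0.44.

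Egln3 had the largest ratio of the list. It was at 4.83 CPM at day 3 (3.71 to 6.196) and 46.8 CPM at day 9 (43.3 to 50.5) in 3AKO, with reads in 6 of 58 and 22 of 61 cells after thinning. In WT it was at 50.05 CPM and 29.6 CPM, so the 3AKO level was below WT at day 3 and above it at day 9. Bnip3, a mitophagy receptor, was at 42.8 CPM (39.3 to 46.5) and 228 CPM (221 to 236) in 3AKO, a log2 ratio of 2.39 against 0.81 in WT, and 91.8% of day 9 cells exceeded the day 3 median. The batch spreads of Egln3 and Bnip3 were 0.28 and 0.20.

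Summed over the list in each cell, the 3AKO level had a median of 18722 CPM at day 3 (range 7989 to 67763) and 34803 CPM at day 9 (range 3933 to 79570). In WT the medians were 29475 CPM and 22494 CPM. Thus 90.2% of 3AKO day 9 cells lay above the 3AKO day 3 median, and 21.7% of WT day 9 cells above the WT day 3 median, although the ranges of all groups overlapped. The median 3AKO-to-WT log2 difference of the members was -0.60 at day 3 and 0.68 at day 9. With day 9 batch 2 the 3AKO median was 0.74, and in WT batch 2 the median was 0.10. The summed level was 20602 CPM in 3AKO day 3 batch 1, and 35956 CPM and 31507 CPM in batches 1 and 2 of 3AKO day 9. In WT day 3 it was 30595 CPM in batch 1 and 17136 CPM in batch 2, and in WT day 9 it was 23343 CPM and 16929 CPM. The 3AKO day 3 level was thus below WT day 3 in batch 1 and above WT day 3 of batch 2. Ndufa4l2, a HIF target outside the list, was at 7.25 CPM and 81.6 CPM in 3AKO and 21.1 CPM and 39.2 CPM in WT.

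**Figure D4:**
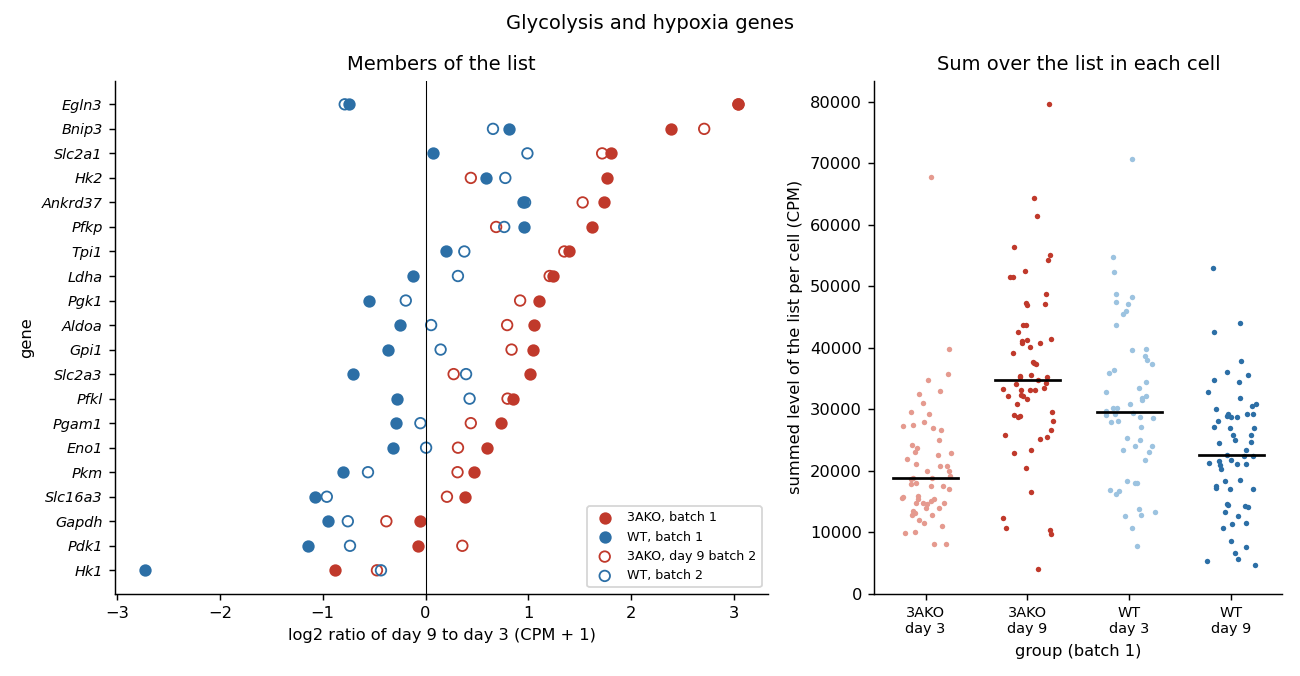
Left, log2 ratio of day 9 to day 3 (x axis) for the 20 glycolysis and hypoxia genes past the detection limit (y axis), in 3AKO and WT, filled for batch 1 and open for batch 2 (for 3AKO, day 9 batch 2 against day 3 batch 1). Right, summed level of the list in each cell (CPM) with the median as a bar; the 3AKO median was 18722 at day 3 and 34803 at day 9.

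RefSeq promoters were searched for the 5 letters ACGTG on either strand (CACGT on the strand shown), in windows of 250 bases before to 50 bases after the start. Of the 20 list members with a promoter, 14 (70.0%) held a match, against 21.8% of all 27025 genes with a promoter. The share was 30.5% over genes past the detection limit, but only 71.4% of those could be matched to a promoter, and the median number of CpG, which the motif contains, was 24 in the list, 23 over the matched genes past the limit and 8 over all genes. The longer CACGTG was found in 2 of 20 (10.0%) against 8.09%. Among list members at least 2-fold higher in 3AKO, 8 of 11 with a promoter (72.7%) held ACGTG, close to the whole list. Over all genes at least 2-fold higher in 3AKO the share was 29.5%, close to the 30.5% over genes past the limit. Promoters of 4 members at least 2-fold higher in 3AKO are shown because they hold a match in bases ahead of the RefSeq start that no annotated exon covers. They run 5' to 3' on the strand of the gene, with the matches in capitals. The windows are chr12:54203875-54204124 (Egln3, minus strand), chr7:138909520-138909756 (Bnip3, minus), chr6:82774455-82774704 (Hk2, minus) and chr8:45999868-46000100 (Ankrd37, minus), in GRCm38.
Egln3: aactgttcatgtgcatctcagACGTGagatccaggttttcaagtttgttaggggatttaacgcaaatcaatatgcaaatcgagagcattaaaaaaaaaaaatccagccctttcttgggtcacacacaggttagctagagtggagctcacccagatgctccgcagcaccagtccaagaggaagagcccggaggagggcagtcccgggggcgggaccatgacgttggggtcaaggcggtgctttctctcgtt
Bnip3: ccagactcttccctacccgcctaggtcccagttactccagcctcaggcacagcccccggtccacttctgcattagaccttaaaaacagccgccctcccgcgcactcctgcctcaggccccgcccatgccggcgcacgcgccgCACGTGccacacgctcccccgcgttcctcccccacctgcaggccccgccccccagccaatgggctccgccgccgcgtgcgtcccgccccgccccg
Hk2: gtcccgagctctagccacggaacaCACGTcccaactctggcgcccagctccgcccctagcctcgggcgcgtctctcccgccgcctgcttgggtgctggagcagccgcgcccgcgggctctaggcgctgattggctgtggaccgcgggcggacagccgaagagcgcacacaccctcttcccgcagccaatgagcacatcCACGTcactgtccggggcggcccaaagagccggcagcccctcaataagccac
Ankrd37: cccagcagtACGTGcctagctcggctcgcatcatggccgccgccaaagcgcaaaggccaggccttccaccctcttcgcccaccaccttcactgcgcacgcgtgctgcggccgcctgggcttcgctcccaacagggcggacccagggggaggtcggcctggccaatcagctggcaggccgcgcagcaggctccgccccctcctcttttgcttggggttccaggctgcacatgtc
The Ankrd37 window lies inside a longer annotated transcript of that gene. In Bnip3 the capitals mark CACGTG, which holds the motif on both strands. These letters are a description of the windows, and binding was not measured.

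Genes whose time change differed most between the genotypes were named from those with a 2-fold change in 3AKO and, in the highest of the 4 groups, a read in at least 30% of cells and at most 25% of reads in 1 cell. Over all genes the difference was at least 2-fold higher in 3AKO for 943 (7.92%) and at least 2-fold lower for 1287 (10.8%). Within these limits the 8 highest differences were those of Fos (4.18), Habp4 (4.02), Zdhhc7 (3.21), the immediate-early gene Ier3 (3.16), Mt1 (2.90), the protease Ctsc (2.80), Sft2d2 (2.76) and the chloride transporter Clcn4 (2.74). These are 3AKO minus WT log2 changes. Mt1, which binds zinc and copper, was at 97.3 CPM (92.0 to 103) and 713.6 CPM (700 to 728) in 3AKO, and at 373.6 CPM and 363.8 CPM in WT. It was thus the day 3 level that was low in 3AKO and the day 9 level that was high. Within the same limits the 8 lowest were Platr7 (-3.76), Adap1 (-3.72), the chromatin remodeller Arid1b (-3.70), the Y-linked demethylase Uty (-3.52), Ttn (-3.26), Platr4 (-3.23), Ttbk2 (-3.12) and Myof (-3.09). Larger differences outside the limits included Calcoco2 (-6.16), Stra8 (-4.97), Col4a1 (4.84), Krt18 (4.77), Ddit4 (4.06) and Egln3 (3.77).

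These differences depended on the libraries. With batch 2 of 3AKO day 9 and of WT, 11 of the 16 kept their sign and 7 kept a size of at least 1. Fos (3.90), Zdhhc7 (2.24), Mt1 (1.82), Platr7 (-1.17), Adap1 (-2.30), Uty (-4.73) and Myof (-3.99) were those 7. The sign turned for Habp4 (-2.24), Ier3 (-2.71), Ctsc (-1.12), Ttn (0.69) and Ttbk2 (1.28). Habp4, for example, was at 1.18 CPM in WT day 9. In this repeat the 3AKO change set day 9 batch 2 against day 3 batch 1, whose cells had served to choose the genes. Agreement is thus in part fixed by the choice, and day is mixed with library batch.

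**Figure D5:**
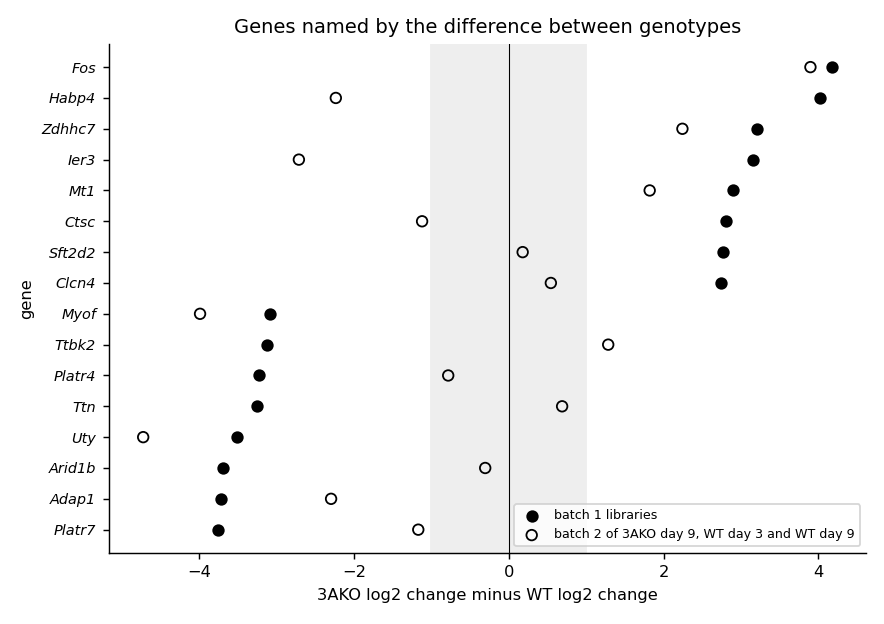
3AKO log2 change minus WT log2 change (x axis) for the 16 genes named by this difference (y axis), from batch 1 libraries (filled) and with batch 2 of 3AKO day 9 and of WT (open); the grey band marks differences under 2-fold. Fos stands at 4.18 and 3.90, while 5 of the 16 have opposite signs.

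Simple-epithelium keratins were among the genes that differed. Krt18 was at 3.35 CPM (2.43 to 4.51) and 64.5 CPM (60.4 to 68.9) in 3AKO, a log2 ratio of 3.91 (WT -0.86), and Krt8 at 2.66 (WT -1.05). However, 1 cell held 55.7% of the day 9 Krt18 reads and 65.6% of the Krt8 reads, and after thinning 15 of 61 and 4 of 61 cells had a read. The trophoblast and simple epithelium list had 4 of 15 genes past the limit, 3 of them 2-fold higher (background 8.72%). Its median was 2.34 (WT -0.96) with a batch spread of 1.48. Cdx2, Elf5 and Gata3, which define trophoblast, did not pass.

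Germline and imprinted genes, which are known to be held silent or mono-allelic by DNA methylation, were set against the backgrounds of 8.72% higher and 7.89% lower. Of 13 germline genes past the limit, Dazl (1.52, WT 0.92), Slc25a31 (1.56, WT -0.72) and Sycp3 (1.24, WT 1.05) were at least 2-fold higher in 3AKO. Stra8, a retinoic acid-induced gene of meiotic entry, was the 1 of 13 that was 2-fold lower, a share near the background, at 74.7 CPM (70.0 to 79.6) and 13.3 CPM (11.4 to 15.3), a log2 ratio of -2.41 (WT 2.56). The germline median was 0.43 (WT 0.57). Of 17 imprinted genes past the limit, 6 were 2-fold higher and 2 lower in 3AKO, with a median of 0.59 (WT 0.34). Mest was at 122 CPM and 1288 CPM (3.38, WT 1.81), where 1 cell held 39.2% of the day 9 reads and the medians over cells were 122 CPM and 136.7 CPM. Sgce (2.64, WT 3.21) and Ndn (2.29, WT 1.25) were higher too, while Grb10 (-1.87, WT -0.28) and Phlda2 (-1.33, WT -0.40) were lower.

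Secreted and calcium-binding proteins were higher at day 9 in batch 1 of both genotypes. The backgrounds for the counts in 3AKO were 8.72% of all genes higher and 7.89% lower. Of 19 extracellular matrix and secreted genes past the limit, 9 were 2-fold higher and 1 lower in 3AKO (median 0.90, WT 0.57). Ptn (4.75, WT 4.29), Mfap2 (4.32, WT 4.87) and Lgals1 (3.18, WT 2.48) were higher in both. Sparc was at 2.93 (WT 0.15) and Col4a1 at 2.46 (WT -2.38), but with day 9 batch 2 they were at -0.54 and -2.28, and 1 cell held 89.8% of the day 9 Col4a1 reads. Of 14 S100 and annexin genes, 8 were 2-fold higher (median 1.40, WT 1.26). With day 9 batch 2 the medians of both lists were below 0 in 3AKO, at -0.31 and -0.22. In the list of cadherins, claudins and mesenchymal factors 4 of 14 were 2-fold higher, among them Cdh2 (1.505, WT 0.92) and Cldn7 (2.24, WT -1.36), and Cdh1 was 2-fold lower (-1.14, WT -1.18). That list had a median of 0.30 (WT -0.02).

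The signalling lists held genes on both sides, against backgrounds of 8.72% higher and 7.89% lower. Of 15 FGF and ERK genes past the limit, 5 were 2-fold higher and 2 lower in 3AKO, including the feedback inhibitors Spry2 (1.63, WT 1.57) and Dusp6 (1.52, WT 0.68) and the target Etv4 (-2.55, WT -2.56), with a median of 0.28 (WT 0.24). Of 12 BMP genes, the targets Id2 (2.15, WT 1.97) and Id3 (1.59, WT 2.93), the ligand Bmp4 (1.17, WT -0.08) and the effector Smad5 (1.39, WT -0.53) were 2-fold higher and none lower (median 0.46, WT 0.51). The time change of 8 of these 12 differed at least 2-fold from that in WT, 3 higher (background 7.92%) and 5 lower (10.8%). In the Wnt list 4 of 13 were higher, with Nkd1 (1.72, WT 0.93) and Lef1 (1.57, WT -0.05) among them, and the receptors Fzd5 (-1.68, WT -0.99) and Fzd7 (-1.26, WT -1.47) were lower. The Wnt median was -0.11 (WT -0.05). With batch 2 libraries it was -0.55 (WT 0.31), and the FGF and ERK median was 0.78 (WT 0.35).

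Medians moved little in the lists for DNA replication, mitosis and ribosomal proteins. The respiratory chain list lay above the median of all genes (0.09 in 3AKO, 0.17 in WT) in batch 1 of both genotypes. Median log2 ratios were -0.04 for 18 DNA replication genes (WT 0.00), 0.10 for 17 mitosis genes (WT 0.04), -0.09 for 24 cytosolic ribosomal proteins (WT -0.12) and 0.29 for 20 nuclear-encoded respiratory chain genes (WT 0.44). None of these 79 genes was 2-fold higher or lower in 3AKO, against 8.72% and 7.89% of all genes. In WT 3 of the 20 respiratory chain genes were higher and 1 of the 18 replication genes lower, against 12.8% and 7.79% of all genes. These WT counts are not read as a result about the lists. Summed over the respiratory chain list, 83.6% of 3AKO and 93.3% of WT day 9 cells lay above the day 3 median of their genotype. With batch 2 libraries that list was at -0.11 in 3AKO (against day 3 batch 1) and 0.49 in WT. Among 18 ribosome biogenesis and MYC genes, 3 were 2-fold lower in 3AKO, against 7.89% of all genes. They were Npm3, the arginine methyltransferase Prmt1 (-1.94, WT -0.48) and Odc1 (-1.01, WT -1.85), and the list median was 0.00 (WT -0.37). The median of 14 p53 and apoptosis genes was -0.33 (WT 0.25), with Zmat3 at -1.28 (WT 0.24). Of 19 ATF4 and amino acid stress genes, 4 were 2-fold higher (background 8.72%), Nupr1, Ddit4, Chac1 and Ddit3. Sesn2 was 2-fold lower, and the list median was 0.55 (WT 0.50), with a batch spread of the list of 1.06. With batch 2 libraries the list median was -0.37 in 3AKO (against day 3 batch 1) and 0.46 in WT. Nupr1 (3.19) and Chac1 (2.50) were at -1.96 and -0.67 with day 9 batch 2.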

How the data were processed

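The authors deposited a table of raw read counts per gene name and cell, with no normalization applied. Per the study's methods and the submitters' processing notes, single-end reads were trimmed with Trim Galore 0.5.0, aligned to GRCm38 with STAR 2.7.1a and assigned to GENCODE exons with featureCounts 1.6.1, leaving out reads that map to several places. Levels of genes with near-identical copies are therefore uncertain.

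From these counts, reads were summed over the kept cells of each group and scaled to CPM with a pseudocount of 1 CPM (Python 3.11.15). Group, day and batch came from the labels. The 26 columns that belong to no sample were not used. One cell was sorted per well, and no doublet caller was run. Thinning drew 50000 reads per cell without replacement. Summing and ratios were tested on simulated data. For the time contrast, the 12 highest and 12 lowest genes by 3AKO ratio were named among those at least 2-fold apart, with a read in at least 30% of the cells of the higher 3AKO group and at most 25% of its reads in 1 cell. The 8 highest and 8 lowest differences from WT were named likewise, with these cell limits applied to the highest of the 4 groups. In each list the 4 largest ratios, and members needed to account for it, were named, with 7 methylation enzymes. Mitochondrial genes, pseudogenes and unnamed gene models were left out. Some single genes are not reported here. Members and lists were chosen with earlier results of these data known. CpG numbers of the named genes were not compared, because only 9 of 12 higher and 9 of 12 lower genes (75.0%) matched a RefSeq promoter. Positions are from GENCODE vM21 (GRCm38, another release than the authors'), in which 97.0% of 55228 gene names were found. Promoters are from RefSeq (GRCm38.p6).

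Values were recomputed with every cell, with harsher cell limits (100000 reads, 4000 genes and 25% mitochondrial reads), with cells averaged after scaling, with thinned cells and with mitochondrial genes and Gm42418 left out of the totals. Scaling by TMM (edgeR 4.0.16) and by the size factors of DESeq2 1.42.0 was also tried, as were other pseudocounts (0.1 or 10 CPM) and other detection limits (5%, 20% or none). Further repeats pooled both batches at day 9, took WT from batch 2, dropped the top cell of each named gene, or changed the marker limits of the classes. The use of batch 2 for 3AKO day 9 and WT together was chosen after seeing the data.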

Additional observations from a re-analysis of the deposited data

Results flagged for a closer look

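Of the genes given a value here, 12 past the detection limit differed at least 2-fold between days in opposite directions in 3AKO and WT, which marked them for a closer look. The difference between the genotypes was not tested, since each group is 1 sample. The 3AKO change minus the WT change was -6.16 for Calcoco2, -4.97 for Stra8, -3.70 for Arid1b, -3.12 for Ttbk2 and -3.09 for Myof. It was 4.84 for Col4a1, 4.06 for Ddit4, 4.02 for Habp4, 3.71 for Krt8, 3.599 for Cldn7, 3.21 for Zdhhc7 and 2.76 for Sft2d2 (log2). With batch 2 of 3AKO day 9 and of WT in place of batch 1, the differences were -5.67 for Calcoco2, -5.33 for Stra8, -3.99 for Myof, 2.66 for Krt8, 2.24 for Zdhhc7 and 1.31 for Cldn7. They were -6.97 for Col4a1, -2.24 for Habp4, 1.28 for Ttbk2, -0.38 for Ddit4, -0.31 for Arid1b and 0.18 for Sft2d2. In this repeat 3AKO day 3 stayed in batch 1, so agreement is in part fixed by the choice of genes. Stra8 was at 74.7 CPM in 3AKO day 3, 13.3 in 3AKO day 9, 3.73 in WT day 3 and 26.9 in WT day 9. Calcoco2 had like summed levels in 3AKO day 3 (80.8 CPM) and WT day 9 (86.7 CPM), and low ones in the other 2 groups (8.46 and 9.60 CPM). However, most of its WT day 9 reads came from 1 cell, as given above. The same holds for the 3AKO day 9 reads of Krt8 and of Col4a1.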

How the results depend on the processing

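All 24 genes named for their time change kept their direction and a size of at least 1 (log2) under every alternative run for them. They had been chosen for large 3AKO ratios, of at least 2.86 or at most -2.66. Most alternatives reuse the same batch 1 cells, so this outcome is largely fixed by the choice. Of 156 genes followed, 11 changed sign after a 2-fold ratio, each with batch 2 of 3AKO day 9 in place of batch 1: Col4a1 (-2.28), Habp4 (-0.47), Ier3 (-0.019), Ttbk2 (0.31), Klf4 (-0.53), Gap43 (-1.21), Nupr1 (-1.96), Chac1 (-0.67), Sparc (-0.54), S100a1 (-0.23) and Tcf7l2 (-0.0017). The same libraries turned the S100 and annexin median to -0.22. Apart from these reversals, 77 of the 156 genes and 8 of the 26 lists shifted by more than their batch spread under at least 1 alternative. With batch 2 of 3AKO day 9 and of WT together, 1843 genes were 2-fold lower in 3AKO, and the difference from WT was 2-fold higher for 1444 and lower for 2771 genes. The glycolysis and hypoxia median was between 0.74 and 1.08 under all its alternatives, and the cause of these shifts was not tested.

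A pseudocount of 10 CPM gave 347 higher and 205 lower genes in 3AKO, 587 and 258 in WT, and 267 and 321 for the difference. No detection limit gave 2332 and 1561, 2837 and 1504, and 2299 and 2707, since more genes are counted. A limit of 20% of cells gave 593 and 846 for the difference, with fewer genes counted. TMM gave 1009 higher genes in WT. Without thinning, the meso-endoderm share differed by -12.4 points and detected genes by -1320.5. The other counts were within 1.5 times the reported ones. No paired analysis was possible because each group is 1 sample and the result comes from no test. The number of cells and the lack of a second culture limit all values.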

Other observations

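After Uty had been named, the Y-linked genes Uty, Ddx3y, Kdm5d and Eif2s3y were looked at together, so this choice was made after the values were seen. E14 is a male line, and part of the cells of every group had no read of the 4 genes. In 3AKO these were 8 of 58 cells at day 3 (13.8%, exact binomial interval 6.15 to 25.4%) and 32 of 61 at day 9 (52.5%, 39.3 to 65.4%) after thinning to 50000 reads. Without thinning they were 7 of 58 and 30 of 61. In WT they were 29 of 54 at day 3 and 29 of 60 at day 9, and in 3AKO day 9 batch 2 they were 11 of 27. The summed level was 125 CPM in 3AKO day 3 and 91.9 CPM in day 9, of which Eif2s3y made up 83.0 and 78.8 CPM, so the level moved less than the share of cells. The intervals cover counting error only, and whether these cells come from a clone was not tested, because the labels do not give the clones.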
